A study of Mus musculus with 24 samples.

Results

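The change that cabozantinib (cabo) made in the transcriptome of bone tumors at day 14 (D14) was compared with the change at the end of the study (EOS), over all 20 intratibial tumors among the 24 tumors of the series. The quantity of interest was the drug-by-time term, which is the log2 difference between cabo and vehicle at EOS minus the same difference at D14, pooled over both gene therapy vectors. A positive term means that the level with cabo, relative to vehicle, was higher at EOS than at D14. Male C57/BL6 mice of 8-10 weeks carried TC2Ras-Luc tumors in the tibia. These cells derive from the mouse prostate line TRAMP-C2 and express activated H-Ras and luciferase, so the tumors are grafts of 1 cell line. Each mouse received plasmid into the tibialis anterior muscle by sonoporation, either the empty vector (pORF0 in the library names) or the IL-27 vector (pIL27), followed by daily gavage with cabo or with its vehicle polyvinylpyrrolidone (PVP). At D14 there were 3 tumors each with empty vector and PVP (control), IL-27 vector and PVP (IL-27), empty vector and cabo (cabo), and IL-27 vector and cabo (IL-27+cabo). At EOS there were 2 tumors in each of these 4 groups. Pooled over the vectors, 6 cabo tumors were compared with 6 PVP tumors at D14, and 4 with 4 at EOS, and no mouse was in both comparisons. Per the methods of the study, dosing ended 14 days after implantation, so D14 tumors were taken at the end of dosing and EOS tumors after it, when each mouse reached its ethical endpoint. The harvest days of single EOS mice were not given in the sources used here, so the time since the last dose and the treatment at EOS cannot be told apart from the time of harvest.

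Cabo inhibits several receptor tyrosine kinases, among them the VEGF receptors, MET, AXL, KIT and RET. VEGF receptors on endothelial cells carry the signal that makes vessels sprout: the leading tip cell raises the Notch ligand DLL4, which activates Notch in its neighbours and holds them back as stalk cells, with genes such as Hey1 as targets. Inhibitors of VEGF signaling are known to prune tumor capillaries, and vessels can regrow along the remaining basement membrane once an inhibitor is withdrawn.

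Each library held between 63729005 and 75305934 counts on genes, and 20202 genes passed the filter on low counts. Within a group, Pearson's r of log2 CPM (counts scaled to a common library size) was at least 0.976 except for mouse 20 of the D14 IL-27+cabo group, whose r with the other tumors of its group lay between 0.916 and 0.921. Main counts that moved without mouse 20 are therefore also given without it. The tumor line genes Hras and Krt8 were detected in all 20 tumors, whereas Bglap, a marker of osteoblasts, was at 0 in 19. No defining endothelial or skeletal muscle marker was at 0 in any tumor.

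The response to cabo differed between D14 and EOS in a small set of genes, nearly all of which were lower with cabo at D14, and among which were 8 of 30 endothelial identity genes. Of the genes tested, 67 had an adjusted p under 0.05 for the drug-by-time term (edgeR's quasi-likelihood test with Benjamini-Hochberg adjustment, 0.332% of all genes), 61 of them higher (0.302%) and 6 lower (0.0297%). All 61 were below PVP at D14, and every cabo tumor lay below every PVP tumor in 52 of them (1.5% of all genes). At EOS, 58 of the 61 were above PVP, 41 with an unadjusted p under 0.05 (10.2% of all genes, in either direction) and 1 after adjustment (0.0149%, higher). The arms did not overlap at EOS in 27 of the 61 (10.4% of all genes). Their median log2 difference between cabo and PVP was -1.62 at D14 and 0.73 at EOS, beside 0.04 and -0.01 over all genes tested. Since the term is made of the 2 differences, these medians describe the 61 genes and are no test of them. At an unadjusted p under 0.05, 1546 genes (7.65%) passed for the term, and DESeq2 called 266 (1.32%). Without mouse 20, 155 genes passed (0.772%), 120 of them higher, and these included all 67. Without mouse 10 of the EOS IL-27 group, 41 genes passed, 39 of which were among the 67.

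**Figure D1:**
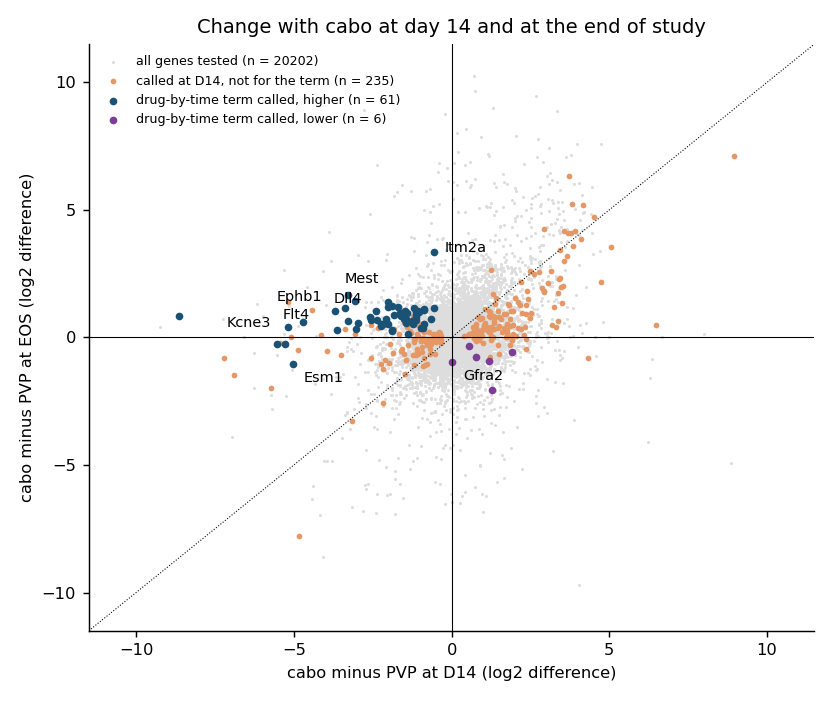
The log2 difference between cabo and PVP at D14 (x axis) and at EOS (y axis) for each gene tested, with the genes called for the drug-by-time term in blue (higher, 61 genes) and purple (lower, 6 genes), and the other genes called at D14 in orange. Points on the dotted line changed equally at both times, and the blue points lie left of 0 at D14 and, apart from Esm1, Gm21541 and Ccl21b, above 0 at EOS.

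The term is also the change from D14 to EOS in cabo tumors minus that in PVP tumors, so the changes over time of the 61 genes are largely fixed by their choice and are given as a description. From D14 to EOS, these genes moved by a median of 2.33 on the log2 scale in cabo tumors and of -0.16 in PVP tumors. Of the 61, 57 were higher at EOS than at D14 in cabo tumors after adjustment (135 of all genes, 0.668%). In PVP tumors, 2 of the 61 passed, Gimap6 and Itm2a, and both were lower at EOS. Over all genes, 214 (1.06%) passed in cabo tumors and 14 (0.0693%) in PVP tumors, 6 of them lower (0.0297%). The numbers over all genes depended on mouse 20 and on the tool, with 309 in cabo and 596 in PVP tumors without mouse 20, and 625 and 602 by DESeq2. Leaving out 1 tumor gave from 0 (D14 control mouse 3) to 596 in PVP tumors. In 58 of the 61 genes, every EOS cabo tumor lay above every D14 cabo tumor, which held for 3.39% of all genes. None of the 61 had every EOS PVP tumor above every D14 PVP tumor, which held for 2.89% of all genes. For 12 of the 61, every EOS cabo tumor also lay above every D14 PVP tumor (1.66% of all genes), so these levels were past those of vehicle tumors at D14.

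**Figure D2:**
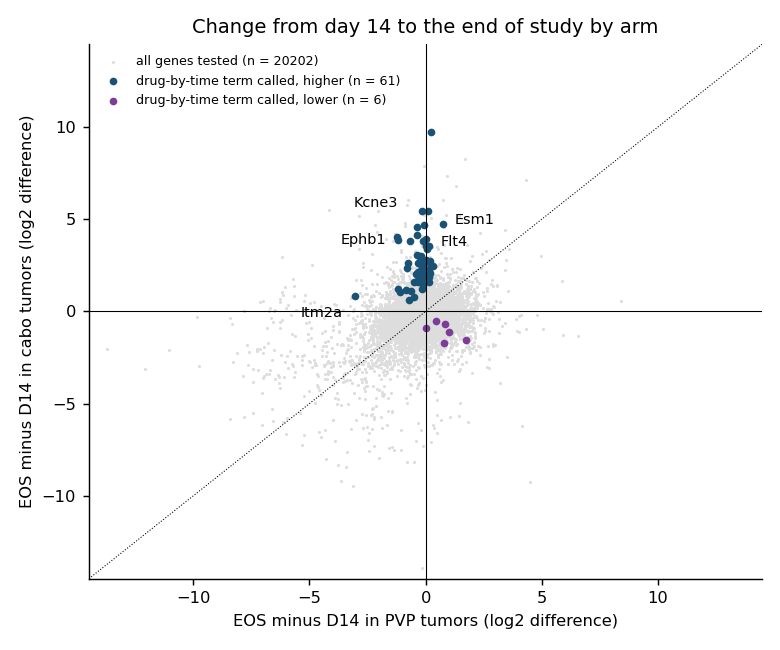
The log2 change from D14 to EOS in PVP tumors (x axis) and in cabo tumors (y axis), with the genes called for the drug-by-time term in color. The blue points spread upward from 0 along the y axis, with a median change of 2.33 in cabo tumors and of -0.16 in PVP tumors.

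In these bulk tumors, fewer vessel cells and less RNA per vessel cell cannot be told apart, and the level of endothelial genes moved with the result. The mean log2 CPM of the 30 endothelial identity genes, all of which were detected, ranged from 2.87 to 3.42 in D14 PVP tumors, from 2.39 to 2.75 in D14 cabo tumors, from 2.65 to 3.24 in EOS PVP tumors and from 3.45 to 3.91 in EOS cabo tumors. The cabo tumors thus lay below the range of PVP tumors at D14 and above it at EOS. Of the 30 genes, 28 had a positive term, with a median of 1.29 (-0.03 over all genes), and 8 were called, all higher (0.302% of all genes). With this mean as a covariate, which was chosen after seeing the data and holds those 8 genes, edgeR called no gene for the term (1990 had an unadjusted p under 0.05) and 64 of the 67 kept their sign.

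The level of skeletal muscle genes also differed between the arms. The mean log2 CPM of 28 muscle genes ranged from -1.46 to 5.49 in D14 PVP tumors, from 4.71 to 6.66 in D14 cabo tumors, from -1.76 to -0.44 in EOS PVP tumors and from 0.81 to 4.22 in EOS cabo tumors. The muscle level of mouse 8 of the D14 IL-27 group (PVP), 5.49, was within the range of the D14 cabo tumors. With the muscle mean as a covariate, 72 genes were called for the term, among them 64 of the 67.

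**Figure D3:**
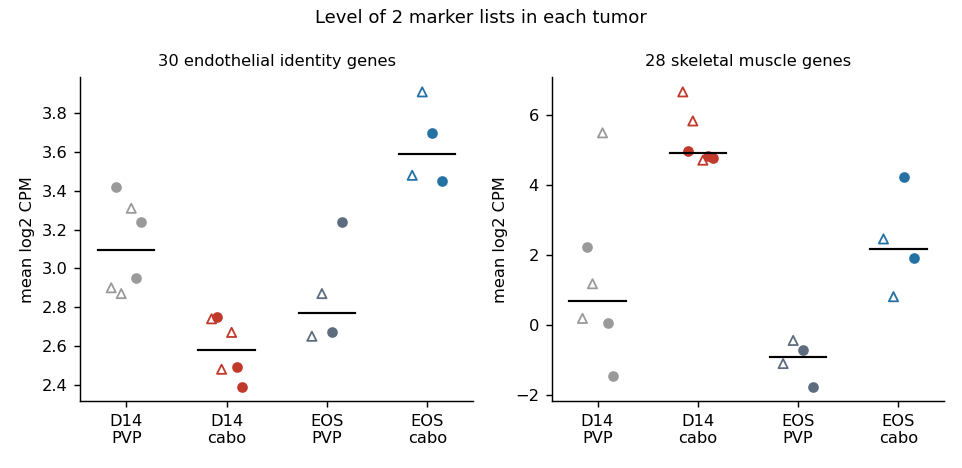
The mean log2 CPM of the endothelial identity list (left) and of the skeletal muscle list (right) in each tumor, by arm, with filled circles for the empty vector, open triangles for the IL-27 vector and bars for medians. Endothelial levels in cabo tumors were below those of PVP tumors at D14 and above them at EOS, while muscle levels in cabo tumors had the higher median at both times.

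The gene with the smallest p was Ephb1 (ENSMUSG00000032537, chr9:101922128-102354693), a receptor tyrosine kinase for ephrin-B ligands. At D14, it had 1.36, 2.31 and 3.30 CPM (lowest, median and highest) in PVP tumors and 0.145, 0.217 and 0.283 CPM in cabo tumors. At EOS, the 4 PVP tumors had 1.01, 1.55, 1.21 and 1.81 CPM, and the 4 cabo tumors 2.99, 2.81, 3.36 and 3.14 CPM, each with the IL-27 vector tumors before the empty vector tumors, an order kept for all EOS values. The arms did not overlap at either time, and cabo tumors were the lower at D14 and the higher at EOS. Its log2 difference was -3.38 at D14 (adjusted p = 2.11e-07) and 1.14 at EOS (unadjusted p = 0.000306, adjusted p = 0.136), and its drug-by-time term was 4.52 (standard error 0.35, adjusted p = 3.5e-06).

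Promoter sequences are shown for Ephb1, for Dll4 and for the endothelial surface genes Emcn and Tie1, since these genes moved together and their values are given in full. The sequences run from 250 bases before to 50 bases after the start (RefSeq, GRCm38.p6), and capitals mark AGGAAG or its reverse complement CTTCCT, a motif of ETS transcription factors, several of which, Erg among them, are expressed in endothelium. They lie at chr9:102354644-102354943 on the minus strand (Ephb1), chr2:119325534-119325833 on the plus strand (Dll4), chr3:137340828-137341127 on the plus strand (Emcn) and chr4:118489800-118490099 on the minus strand (Tie1).
Ephb1: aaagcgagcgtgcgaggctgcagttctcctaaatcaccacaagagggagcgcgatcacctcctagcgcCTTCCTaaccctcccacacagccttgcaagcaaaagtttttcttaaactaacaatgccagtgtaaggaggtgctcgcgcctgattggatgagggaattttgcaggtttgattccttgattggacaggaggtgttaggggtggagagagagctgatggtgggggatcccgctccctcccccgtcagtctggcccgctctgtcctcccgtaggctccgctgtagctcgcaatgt
Dll4: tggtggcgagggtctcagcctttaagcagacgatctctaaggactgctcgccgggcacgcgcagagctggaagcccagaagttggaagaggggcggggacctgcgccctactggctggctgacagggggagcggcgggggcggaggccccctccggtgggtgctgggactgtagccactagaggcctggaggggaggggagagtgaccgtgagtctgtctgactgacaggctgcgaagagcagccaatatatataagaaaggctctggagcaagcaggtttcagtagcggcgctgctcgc
Emcn: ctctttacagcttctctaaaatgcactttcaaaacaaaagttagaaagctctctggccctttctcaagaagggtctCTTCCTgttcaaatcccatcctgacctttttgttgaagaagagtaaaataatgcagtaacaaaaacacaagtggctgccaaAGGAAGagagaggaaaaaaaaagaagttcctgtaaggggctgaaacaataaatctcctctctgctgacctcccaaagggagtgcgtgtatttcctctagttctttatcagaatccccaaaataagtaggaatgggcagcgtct
Tie1: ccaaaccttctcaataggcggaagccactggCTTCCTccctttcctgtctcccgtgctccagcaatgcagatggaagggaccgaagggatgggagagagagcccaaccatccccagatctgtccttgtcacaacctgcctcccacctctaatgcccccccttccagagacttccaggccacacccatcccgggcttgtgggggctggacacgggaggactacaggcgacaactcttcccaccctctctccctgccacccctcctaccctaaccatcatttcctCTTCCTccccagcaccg
The letters occurred once in the Ephb1 window, 182 bases before the start, at 2 places each in the Emcn and Tie1 windows and nowhere in the Dll4 window. A window was found for 39 of the 61 genes, and 22 of their 49 windows (44.9%) held AGGAAG on either strand, beside 34.1% of the 16539 windows of all genes tested. For TGGGAA, a motif of the Notch effector RBPJ, the shares were 24.5% and 23.7%, and for AGATAA, bound by factors such as GATA2, 8.16% and 7.04%, each on either strand. The letters of different motifs were free to overlap. Some genes have several windows that can overlap, and a match describes the letters only.

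Among the 13 tested kinase genes counted as targets of cabo, Flt4 and Kdr were called for the term, both higher (0.302% of all genes). DESeq2 called 3 of the 13 for the term, all higher, beside 1.32% of all genes called in either direction. Flt4 (chr11:49609263-49652739) encodes VEGF receptor 3, found on lymphatic and sprouting endothelium. It had 11.9, 14.6 and 26.2 CPM in D14 PVP tumors and 0.792, 1.27 and 1.93 CPM in D14 cabo tumors. At EOS, it had 15.8, 19.4, 15.5 and 14.5 CPM with PVP and 18.8, 19.2, 22.9 and 19.5 CPM with cabo. The arms were apart at D14 and overlapped at EOS, with a term of 3.93 (standard error 0.37, adjusted p = 1.65e-05). Kdr (chr5:75932827-75978458), which encodes VEGF receptor 2, the main receptor of VEGF-A on endothelium, had 15.3, 19.4 and 31.3 CPM in D14 PVP tumors and 4.01, 7.77 and 10.9 CPM in D14 cabo tumors. Its EOS levels were 19.4, 19.3, 20 and 17.4 CPM with PVP and 28.2, 50.2, 29.2 and 20.1 CPM with cabo. The arms of Kdr were apart at D14 and, narrowly, at EOS, and its term was 2.21 (standard error 0.35, adjusted p = 0.00419).

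Flt1 (VEGF receptor 1) and Kit (the receptor of stem cell factor) fell with cabo at D14 but did not pass for the term. For Flt1, the log2 difference was -1.37 at D14 (adjusted p = 0.00432) and -0.30 at EOS, and for Kit it was -1.15 (adjusted p = 0.00800) and -0.07. Their terms were 1.07 (adjusted p = 0.369) and 1.09 (adjusted p = 0.285). Both were nevertheless higher at EOS than at D14 within the cabo tumors, by 1.53 and 1.40 on the log2 scale (adjusted p = 0.00300 and 0.00296). The other named targets did not pass in any of the 3 edgeR tests of the drug, with terms of 0.09 for Met, 0.40 for Axl, 0.45 for Flt3 and -1.39 for Ret. By edgeR, none of the 7 VEGF ligand and coreceptor genes passed at D14, at EOS or for the term (0, 2 and 1 with an unadjusted p under 0.05), and DESeq2 called 1, higher at EOS. Vegfa ranged from 71.4 to 523 CPM in D14 PVP, from 143 to 209 CPM in D14 cabo, from 198 to 459 CPM in EOS PVP and from 95.5 to 220 CPM in EOS cabo tumors, so the arms overlapped at both times.

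**Figure D4:**
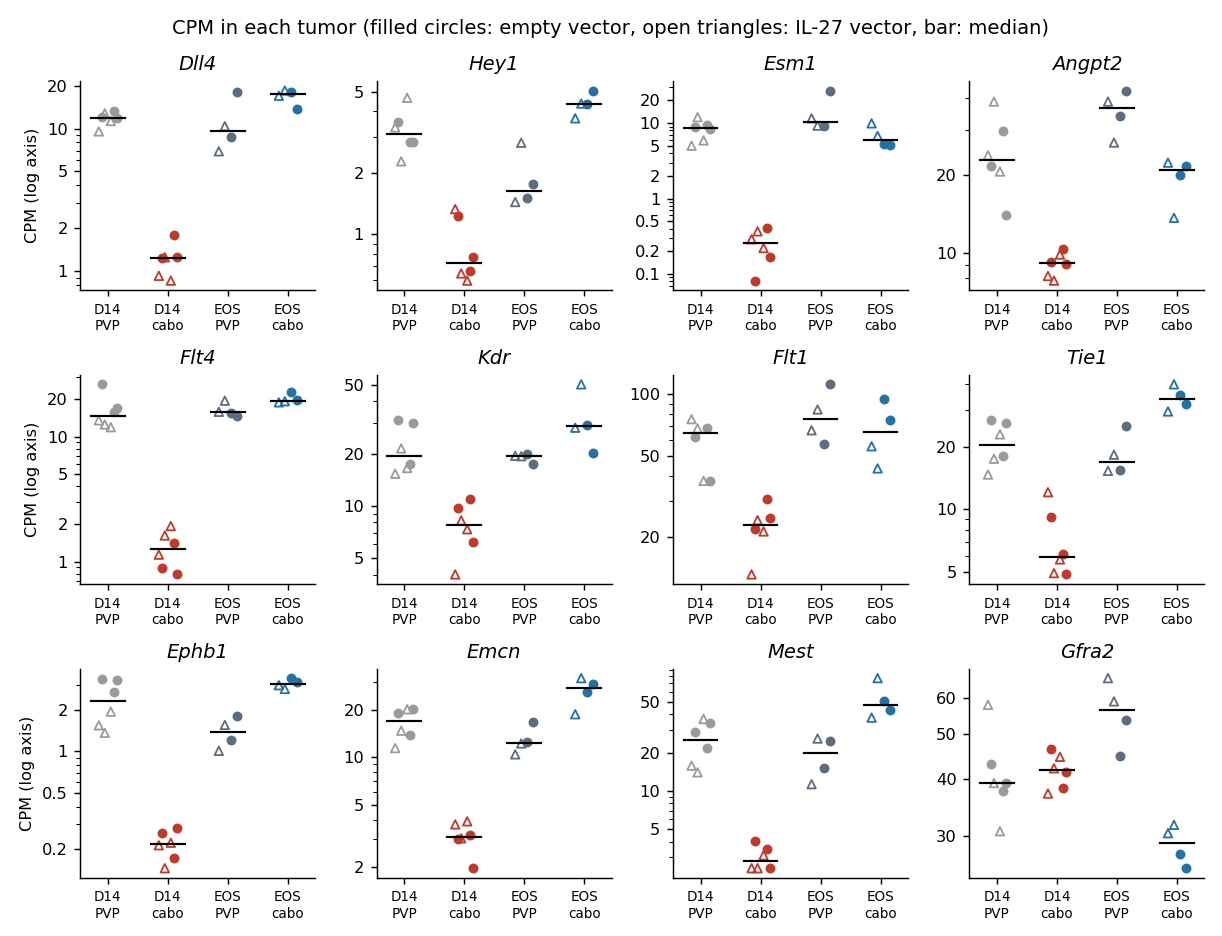
CPM on a log axis in each tumor for Notch and tip cell genes (top), VEGF receptors and Tie1 (middle), and Ephb1, Emcn, Mest and Gfra2 (bottom), with filled circles for the empty vector, open triangles for the IL-27 vector and bars for medians. In the D14 cabo arm, Dll4, Flt4, Ephb1, Emcn and Mest lie below every other tumor, while Angpt2 is below PVP at both times and Gfra2 is apart from PVP only at EOS.

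Of the 20 Notch and tip cell genes, 4 were called for the term, all higher (0.302% of all genes). Dll4 (chr2:119325784-119335962), the Notch ligand of tip cells, had 9.55, 11.9 and 13.3 CPM in D14 PVP tumors and 0.857, 1.24 and 1.79 CPM in D14 cabo tumors. At EOS, it had 6.93, 10.4, 8.79 and 18 CPM with PVP and 17, 18.5, 18 and 13.7 CPM with cabo. Its cabo tumors were the lower without overlap at D14, while the arms overlapped at EOS, where the EOS control tumor of mouse 9 had 18 CPM, and the term was 3.93 (standard error 0.33, adjusted p = 6.28e-06). Hey1, a transcriptional repressor that Notch activates, went from a log2 difference of -1.90 at D14 (adjusted p = 0.000788) to 1.22 at EOS (unadjusted p = 0.00119, adjusted p = 0.159). Its term was 3.12 (standard error 0.42, adjusted p = 0.000734).

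Esm1, a proteoglycan secreted by tip cells, behaved otherwise at EOS. It had 5.02, 8.73 and 12 CPM in D14 PVP tumors and 0.0817, 0.255 and 0.403 CPM in D14 cabo tumors, and at EOS 11.6, 9.28, 9.09 and 27.1 CPM with PVP and 9.95, 6.78, 5.32 and 5.10 CPM with cabo. Its EOS cabo tumors lay above those of D14 but mostly below those with PVP, with log2 differences of -5.02 at D14 (adjusted p = 1.84e-06) and -1.06 at EOS (unadjusted p = 0.0252, adjusted p = 0.389). Esm1 overlaps Gzmk, and whether the counting used strand was not stated, so its counts are uncertain. The same holds for Ephb1, Dll4, Robo1, Kcne3, Mcam and Sparcl1, which overlap numbered gene models or small RNA genes. Nid2, a nidogen of basement membranes that overlaps Rtraf, was the fourth (term 2.15, adjusted p = 0.0221).

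Angpt2, the ligand of the receptor TEK that destabilizes vessels, stayed below PVP at both times. It overlaps Mcph1. Its log2 difference was -1.44 at D14 (adjusted p = 0.000836) and -0.87 at EOS (unadjusted p = 0.00235, adjusted p = 0.184), and the term was 0.57 (adjusted p = 0.717). The arms did not overlap at D14 or at EOS, where PVP tumors had 38.6, 26.8, 34 and 42.6 CPM and cabo tumors 22.4, 13.7, 20.1 and 21.7 CPM. Nrarp, a feedback inhibitor of Notch signaling, had a term of 2.12 that did not pass (adjusted p = 0.154) but passed without mouse 20 (2.37, adjusted p = 0.0316).

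Of the 30 endothelial identity genes, 8 were called for the term, all higher (0.302% of all genes): Emcn, Tie1, Cldn5, Mmrn2, Robo4, Esam, Pecam1 and Erg. Emcn (endomucin, chr3:137341067-137432185), a sialoglycoprotein of capillaries and veins, had 11.4, 16.9 and 20.3 CPM in D14 PVP tumors and 1.97, 3.12 and 3.91 CPM in D14 cabo tumors. At EOS, it had 10.4, 12.2, 12.4 and 16.6 CPM with PVP and 18.7, 31.7, 25.9 and 29 CPM with cabo. The arms were apart at both times and in opposite order, with a term of 3.44 (standard error 0.31, adjusted p = 1.13e-05). Tie1 (chr4:118471191-118490061), an orphan receptor that pairs with TEK, had 14.7, 20.5 and 26.7 CPM in D14 PVP tumors and 4.88, 5.94 and 12.1 CPM in D14 cabo tumors. Its EOS levels were 15.3, 18.3, 15.4 and 25.2 CPM with PVP and 29.5, 39.8, 35.5 and 32.1 CPM with cabo, again apart at both times, with a term of 2.43 (standard error 0.37, adjusted p = 0.00289).

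The other 6 had terms from 1.36 to 3.25. Cldn5, the claudin of endothelial tight junctions, had a term of 3.25 (adjusted p = 0.00689), and Robo4, a receptor that stabilizes vessels, of 1.82 (adjusted p = 0.0104). Pecam1 (CD31), the adhesion molecule on most endothelium, had 45.1, 56.1 and 66.9 CPM in D14 PVP tumors and 27.8, 32.8 and 47.4 CPM in D14 cabo tumors. Its EOS levels were 43.3, 42.9, 41.7 and 72.4 CPM with PVP and 68.9, 101, 83.1 and 70.8 CPM with cabo. The arms of Pecam1 overlapped at both times and it did not pass at D14 (log2 difference -0.66, adjusted p = 0.0592), while its term did (1.36, standard error 0.27, adjusted p = 0.0300). Cdh5 (VE-cadherin) did not pass at either time or for the term (1.21, adjusted p = 0.337). Without mouse 20, 13 of the 30 were called, Adgrl4, Plvap, Egfl7, Icam2 and Gja4 in addition. The share called over all genes was then 0.772%, beside 0.332% with all tumors.

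Gja5, a connexin of arteries, rose with cabo at D14 (log2 difference 1.32, adjusted p = 0.0184), had 0.85 at EOS (unadjusted p = 0.0198, adjusted p = 0.356) and a term of -0.47 (adjusted p = 0.857). Gja4, another arterial connexin, had a log2 difference of 0.37 at D14 (adjusted p = 0.654) and was 1 of the 5 genes called at EOS, at 2.51 (adjusted p = 0.0467). Its term of 2.14 did not pass (adjusted p = 0.113) but passed without mouse 20 (2.38, adjusted p = 0.0140). Its EOS levels were 0.271, 0.347, 0.305 and 0.566 CPM with PVP and 2.38, 2.55, 1.98 and 1.61 CPM with cabo. Tek, the receptor of the angiopoietins, had log2 differences of -0.11 at D14 and 1.34 at EOS (unadjusted p = 0.000224, adjusted p = 0.129), and its term of 1.45 did not pass (adjusted p = 0.156).

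Of 9 lymphatic endothelial genes, 4 fell with cabo at D14, beside 0.762% of all genes. By edgeR, none was called for the term, and 6 had an unadjusted p under 0.05 (7.65% of all genes). DESeq2 called 4 for the term (1.32% of all genes). Without mouse 20, 5 fell at D14 (4.81% of all genes) and Itga9, an integrin of lymphatic valves, was called for the term (1.29, adjusted p = 0.0392). Lyve1, a hyaluronan receptor of lymphatics that macrophages express too, had 5.99, 8.33 and 13.7 CPM in D14 PVP tumors and 1.46, 2.39 and 3.56 CPM in D14 cabo tumors. Its log2 difference was -1.95 at D14 (adjusted p = 0.00193) and -0.25 at EOS (adjusted p = 0.952), and the term was 1.70 (standard error 0.46, adjusted p = 0.208). Mmrn1, a secreted glycoprotein of lymphatics and platelets, fell at D14 (-4.14, adjusted p = 0.00402) and had 0.10 at EOS, with a term of 4.25 and a standard error of 0.98 (adjusted p = 0.0899). Reln and the chemokine Ccl21a fell at D14 as well. Ccl21b and Gm21541 were called for the term, but they share near-identical sequence with Ccl21a and other copies, so the split of reads between them is uncertain.

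Of 15 pericyte genes, 2 were called, Mcam and Kcnj8, both higher (0.302% of all genes). Mcam (CD146), an adhesion molecule that endothelium expresses too, had a term of 2.56 (adjusted p = 0.00232). Kcnj8, a subunit of ATP-sensitive potassium channels, had a term of 2.52 (adjusted p = 0.00697). Abcc9, the partner of Kcnj8 in that channel, had a term of 1.58 that did not pass (adjusted p = 0.161). Of 14 vascular basement membrane genes, Sparcl1, a matricellular protein, was the only one called (higher, as were 0.302% of all genes). It had 44.0, 60.9 and 69.8 CPM in D14 PVP tumors and 24.8, 31.0 and 42.0 CPM in D14 cabo tumors, and at EOS 37.8, 46.7, 37.5 and 74.4 CPM with PVP and 99.4, 119, 114 and 93.1 CPM with cabo. The EOS cabo tumors of Sparcl1 lay above all other tumors, with a term of 2.00 (standard error 0.28, adjusted p = 0.00134).

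Of the 61 genes, 17 were in one of the lists and 44 in none. Mest (chr6:30723547-30748465), an imprinted gene that encodes a hydrolase-like protein and overlaps Copg2, had 14.0, 25.2 and 36.8 CPM in D14 PVP tumors and 2.47, 2.81 and 4.05 CPM in D14 cabo tumors. At EOS, it had 11.3, 25.8, 15.2 and 24.8 CPM with PVP and 37.7, 77, 51.1 and 43.5 CPM with cabo. The arms of Mest were apart at both times in opposite order, and its term was 4.49 (standard error 0.44, adjusted p = 2.22e-05). Kcne3, an accessory subunit of potassium channels, had between 0.0920 and 0.191 CPM in the D14 cabo tumors and between 2.51 and 9.32 CPM in all PVP tumors. At EOS, its cabo tumors had 2.86, 6.15, 7.64 and 7.79 CPM, within the range of PVP, with a term of 5.58 (standard error 0.59, adjusted p = 5.45e-05).

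Receptors formed part of the remainder. Ednrb, the endothelin receptor B, had 16.7, 23.2 and 26.9 CPM in D14 PVP tumors and 3.82, 4.93 and 7.32 CPM in D14 cabo tumors, and at EOS 20.2, 21.4, 21.9 and 25 CPM with PVP and 33.8, 25.6, 46.9 and 43.9 CPM with cabo. The order of the arms of Ednrb was reversed without overlap (term 2.81, standard error 0.24, adjusted p = 7.15e-06). Robo1, a Slit receptor, had a term of 3.39 (adjusted p = 2.74e-05), and the proton-sensing receptor Gpr4 of 1.86 (adjusted p = 0.0340). Of adhesion and matrix genes, the protocadherin Pcdh12 had a term of 4.73 and the membrane-bound metalloproteinase Mmp15 of 2.44 (adjusted p = 0.000190 each). Rasgrp3, an exchange factor of small GTPases, had a term of 2.42 (adjusted p = 4.8e-05). Nos3, the nitric oxide synthase of endothelium, which overlaps Atg9b, had a term of 1.94 (adjusted p = 0.00449), and Gpihbp1, which holds lipoprotein lipase on capillaries, of 3.54 (adjusted p = 0.0221).

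The 61 genes ranged widely in CPM, which is not scaled for gene length. Igfbp3, which binds insulin-like growth factors, had 153 to 251 CPM in D14 PVP tumors, 25.8 to 77.1 CPM in D14 cabo tumors and 176 to 267 CPM in EOS cabo tumors, with a term of 2.19 (adjusted p = 0.00954). The transcript 4930502E18Rik had no counts in any of the 6 D14 cabo tumors, against 0.375 to 1.37 CPM in D14 PVP tumors and 0.754 to 1.99 CPM in EOS cabo tumors. Against a floor of 3 counts in each tumor, it was at least 16.1-fold lower with cabo than with PVP at D14. With it set to that bound, the medians of the 61 genes were again 2.52 for the term and -1.62 at D14. Gimap6, a small GTPase known from lymphocytes, moved in both arms. It had a term of 2.40 (adjusted p = 0.000117), made of a change over time of 1.2 in cabo tumors (adjusted p = 0.00152) and of -1.2 in PVP tumors (adjusted p = 0.0272).

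Itm2a, a transmembrane protein of muscle precursors, cartilage and T cells, differed from the rest as well. It had 1.46, 2.84 and 8.33 CPM in D14 PVP tumors and 1.37, 2.31 and 3.37 CPM in D14 cabo tumors, with overlapping arms. At EOS, it had 0.400, 0.579, 0.499 and 0.174 CPM with PVP and 8.14, 8.38, 2.88 and 1.24 CPM with cabo. Its log2 difference was 3.36 at EOS (adjusted p = 0.0467), it fell over time in PVP tumors by 3.04 on the log2 scale (adjusted p = 0.0416), and its term was 3.90 (adjusted p = 0.00989).

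**Figure D5:**
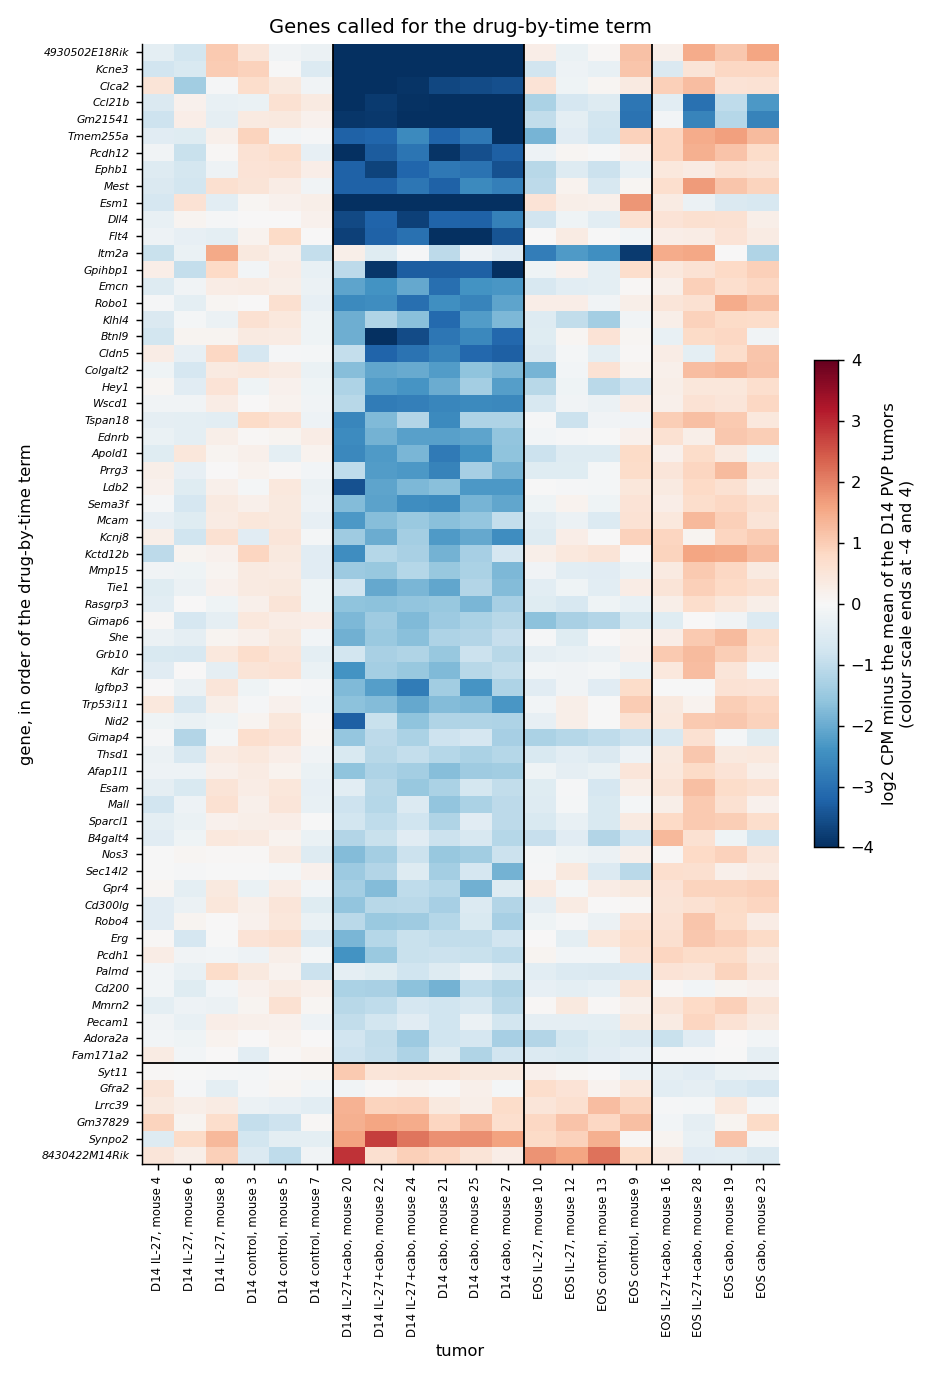
Log2 CPM of the 67 genes called for the drug-by-time term in each of the 20 tumors, relative to the mean of the D14 PVP tumors, with genes in order of the term. In the 61 genes above the line, the 6 D14 cabo tumors (second block) are mostly blue. Itm2a is an exception, with 1.37 to 3.37 CPM there. The 4 EOS cabo tumors (last block) are mostly pale to red in these 61 genes. In the 6 genes below the line, the order of these 2 blocks is mostly the opposite. Gfra2 is an exception at D14, with a log2 difference of 0.02 between cabo and PVP.

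The 6 genes with a lower term were Lrrc39, Syt11, Synpo2, Gfra2, Gm37829 and 8430422M14Rik. All 6 were above PVP at D14, 4 of them after adjustment, and below it at EOS. Synpo2, an actin-binding protein of muscle, had 3.26, 4.18 and 13.6 CPM in D14 PVP tumors and 16.8, 19.9 and 37.5 CPM in D14 cabo tumors, and at EOS 9.44, 10.4, 14.7 and 5.73 CPM with PVP and 5.89, 4.46, 12.1 and 5.25 CPM with cabo. Its arms were apart at D14 and overlapped at EOS, with a term of -2.51 (standard error 0.50, adjusted p = 0.0336). Syt11, a synaptotagmin of membrane traffic, had 58.3 to 64.3 CPM in D14 PVP and 80.1 to 127 CPM in D14 cabo tumors, and the term was -0.90 (adjusted p = 0.0257). Lrrc39, a protein of the muscle M-band that overlaps Trmt13, had a term of -1.54 (standard error 0.26, adjusted p = 0.00689). Gfra2, the receptor of neurturin, did not differ at D14 beyond the spread (log2 difference 0.02, adjusted p = 0.969). It had 66.2, 58.9, 44.8 and 53.7 CPM with PVP and 30.4, 31.7, 27.4 and 25.5 CPM with cabo at EOS (-0.95, adjusted p = 0.0467). The term of Gfra2 was -0.97 (adjusted p = 0.0449), and it no longer passed in 17 of 20 fits that each left out 1 tumor. Synpo2 lost its call in 13 of these fits and Syt11 in 6. Just inside the threshold were Fam171a2, Gfra2 and Mall (adjusted p of 0.0436, 0.0449 and 0.0449), and just outside Gm35019, D030007L05Rik and Gm10156 (0.0515, 0.0515 and 0.0547).

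At D14, cabo changed 296 genes (1.47% of all genes), of which 154 fell (0.762%) and 142 rose (0.703%). Of the 154 that fell, 57 were called for the term, all 57 higher. By edgeR, none of the 154 was called at EOS, where 39 were above PVP and 21 below with an unadjusted p under 0.05. Their median log2 difference was -1.37 at D14 and 0.15 at EOS, in other mice, where 86 of the 154 were above PVP and 68 below, beside 48.9% of all genes above. Of the 142 that rose, 4 were called for the term and 1 at EOS, the serotonin receptor Htr7. Their median went from 1.75 to 0.57, and 123 of the 142 were still above PVP at EOS, 59 of them with an unadjusted p under 0.05. Genes chosen for passing at D14 have extreme values there, and the term shares the D14 tumors, so some loss follows from the choice. The number at D14 was 34, all of them lower, with the muscle mean as a covariate, and 149 without D14 control mouse 7. Without mouse 20, 1704 genes were called at D14, and 324 of the 965 that fell (33.6%) were above PVP at EOS, beside 55.8% with all tumors. Of the genes that rose at D14, 24.9% were then below PVP at EOS, beside 13.4% with all tumors. By DESeq2, these shares were 42.4% and 18.6%, and the difference between the directions was not tested. By edgeR, no gene had an adjusted p under 0.05 at both times with opposite signs, while 116 had an unadjusted p under 0.05 at both. By DESeq2, 21 genes had an adjusted p under 0.05 at both times with opposite signs, 20 of them lower at D14, and these 20 were among the 61.

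Of 28 skeletal muscle genes, 3 rose at D14, Ttn, Neb and Ryr1 (0.703% of all genes), and 7 did without mouse 20 (3.68% of all genes). By edgeR, none was called at EOS (21 with an unadjusted p under 0.05) or for the term (0 with an unadjusted p under 0.05), with list medians of 3.28 at D14, 4.14 at EOS and 0.66 for the term. DESeq2 called 16 of them higher at D14 (2.95% of all genes), 18 higher at EOS (1.86%) and none for the term. Ryr1, the calcium release channel of muscle, had 1.55, 3.41 and 49.8 CPM in D14 PVP tumors and 68.5, 105 and 242 CPM in D14 cabo tumors. At EOS, it had 0.971, 1.81, 1.22 and 0.958 CPM with PVP and 11.2, 10.7, 75.3 and 7.60 CPM with cabo. The cabo tumors of Ryr1 were the higher without overlap at EOS, with a log2 difference of 4.11 (unadjusted p = 0.00101, adjusted p = 0.154) and a term of 0.34 (adjusted p = 0.970). By edgeR, interferon-stimulated genes had no call at D14, at EOS or for the term among 28 (20, 25 and 0 with an unadjusted p under 0.05, beside 14.5%, 10.2% and 7.65% of all genes), with medians of 1.2, 1.85 and 0.76. DESeq2 called 10 of them higher at D14, 19 higher at EOS and none for the term. Without mouse 20, 3 of them rose at D14 (3.68% of all genes). These were the RNA sensors Ddx58 (0.98, adjusted p = 0.0203) and Ifih1 (0.92, adjusted p = 0.0346), and Oasl1 (0.86, adjusted p = 0.0350). Hypoxia response, MAPK output, proliferation, macrophage, T cell and osteoclast genes had no call for the term by edgeR either, and 24 of the 29 lists had none. With an unadjusted p under 0.05 there were 1, 0, 10, 3, 1 and 1 genes in these lists, in that order, beside 7.65% of all genes. All 26 proliferation genes had a positive term, beside a median term of -0.03 over all genes. Without mouse 20, the term of Mki67 was -0.06. DESeq2 called 1 proliferation gene and none in the others. Without mouse 20, the mitotic kinase Aurka was called for the term (0.63, adjusted p = 0.0444), and Pdgfra of the fibroblast list was called with a lower term (-1, adjusted p = 0.0183). Then 5 of 26 proliferation genes fell at D14 (4.81% of all genes), where none had passed with all tumors (0.762% of all genes). Of 27 T cell genes, 2 fell at D14, Zap70 and Lck (0.762% of all genes). Without mouse 20, 9 fell (4.81% of all genes), and by DESeq2 9 fell (2.22%). The T cell list's medians were -0.84 at D14, -0.70 at EOS and 0.03 for the term.

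At EOS, 5 genes passed (0.0248%), 3 higher and 2 lower (0.0099%), while 2066 had an unadjusted p under 0.05 and DESeq2 called 524, so the small number of calls does not show that cabo and PVP tumors were alike at EOS. The 5 were Gja4, Htr7, Itm2a, Gfra2 and Cyb5r1, and the number ranged from 0 to 47 when 1 tumor was left out. Htr7 was the one gene called at both times, in the same direction, with log2 differences of 1.26 at D14 (adjusted p = 0.0332) and 2.64 at EOS (adjusted p = 0.0223). Its levels were low, 0.0579 to 0.145 CPM with PVP and 0.480 to 1.02 CPM with cabo at EOS.

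The 61 genes were chosen on the pooled term of these same tumors, so their sign within each vector is a description. All 61 had a positive term among empty vector tumors and among IL-27 vector tumors when each was estimated in the model with all products. No gene had an adjusted p under 0.05 for the difference between the vectors in the drug-by-time term, while 416 (2.06%) had an unadjusted p under 0.05 and DESeq2 called 3. Of the 67 genes, 1 had an unadjusted p under 0.05 for that difference, Flt4, with a term of 4.76 in the empty vector and of 3.12 in the IL-27 vector (unadjusted p = 0.00979, adjusted over all genes 1.00). Fitted alone, the 10 empty vector tumors gave 26 calls for the term, 19 of them among the 67, and the 10 IL-27 vector tumors, with mouse 20 among them, gave none by edgeR (573 had an unadjusted p under 0.05). All 67 kept their sign in both. For Ephb1, the terms were 4.79 and 4.23, and for Dll4 3.37 and 4.50 (unadjusted p of the difference 0.0779).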

How the data were processed

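Poly(A) RNA from the tumors was sequenced with a stranded TruSeq kit. The authors deposited raw read counts per gene for all samples in 1 table. The submitters' notes name FastQC, HISAT2, StringTie and DESeq2, and list GRCh38, a human build, although the gene identifiers are mouse. The counting program, its annotation and its strand setting were not given in the sources used here. Between 30.4% and 35.5% of low values in each library were multiples of 4, so counts divided by 4 were tried. Gene names and positions came from GENCODE M21 on GRCm38 (55141 of 55401 identifiers matched).

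The 20 intratibial tumors were fitted with edgeR 4.0.16 (R 4.3.3), with TMM scaling, edgeR's filter on low counts by drug and time, and terms for vector, drug, time, vector by time and drug by time. Quasi-likelihood tests gave p-values that were adjusted by Benjamini-Hochberg over the 20202 genes tested, and calls were made at an adjusted p under 0.05. The script was tested on simulated data. Each tumor came from a different mouse, and p-values measure the spread between mice. The genes named were the 12 with the smallest p for the term in each direction, leaving out numbered gene models (4 remained among the lower genes), genes of the lists, and the kinases taken as cabo targets whatever their values. Other genes were chosen after their values were seen. The comparison, its genes and the lists were chosen with earlier results of these data known. DESeq2 1.42.0, other scalings, filters, covariates and designs, and leaving out each tumor were alternatives. The mean of the endothelial list as a covariate was added after seeing the data.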

Additional observations from a re-analysis of the deposited data

Results flagged for a closer look

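The response to cabo differed between D14 and EOS by the test of the drug-by-time term in each of the 16 genes named by rule, and the term is given here on the log2 scale. It was 4.52 for Ephb1, 3.93 for Dll4, 2.81 for Ednrb, 3.44 for Emcn, 3.93 for Flt4 and 4.49 for Mest. It was 3.39 for Robo1, 2.42 for Rasgrp3, 5.58 for Kcne3, 2.40 for Gimap6, 4.73 for Pcdh12 and 2.44 for Mmp15. The 4 lower genes had terms of -1.54 (Lrrc39), -0.90 (Syt11), -2.51 (Synpo2) and -0.97 (Gfra2).

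In 5 of 72 sets of tumors looked at for these genes, 1 tumor lay far from the rest by Dixon's test, which chance gives in about 1 of 20 sets. Among the D14 cabo arm, Emcn had a log2 CPM of 1.00 in cabo mouse 21 against 1.62 to 1.98 in the others. In IL-27+cabo mouse 20 of the same arm, Pcdh12 had -3.25 against -1.39 to -0.37, and Syt11 had 6.99 against 6.32 to 6.47. At EOS, Lrrc39 had 1.41 in cabo mouse 19 against 0.90 to 0.95, and Robo1 had 1.94 in control mouse 13 against 2.33 to 2.36. Mouse 20 also stood apart over all genes. Without it, the term was 4.54 for Pcdh12 and -0.80 for Syt11. With each tumor left out in turn, the term ranged from 4.54 to 4.98 for Pcdh12 and from -0.99 to -0.80 for Syt11.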

How the results depend on the processing

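No paired analysis was possible because the groups share no mouse number. With 67 genes called for the drug-by-time term, RLE scaling gave 69, no filter 57, counts divided by 4 gave 83, the muscle covariate 72, all products 70 and no vector terms 73. Numbers moved by over 1.5 times under other settings, and the cause was not tested. DESeq2 gave 266 for the term, 1044 at D14, 524 at EOS, 163 for D14 genes also called for the term and 3 for the difference between vectors. An unadjusted p under 0.05 with a log2 change of 1.5 gave 517, 639, 620, 151 and 370. The endothelial covariate, added after seeing the data, gave 0 for the term, 995 at D14, 0 at EOS and 0 shared. The muscle covariate gave 34 at D14, 0 at EOS and 30 shared. Empty vector tumors alone gave 26 for the term, 0 at EOS and 24 shared, and IL-27 vector tumors alone gave 0, 3 at D14, 0 at EOS and 0 shared. Counts divided by 4 gave 484 at D14, and no filter gave 2 at EOS. Leaving out 1 tumor gave 41 (EOS IL-27 mouse 10) to 155 (mouse 20) for the term, 149 (D14 control mouse 7) to 1704 (mouse 20) at D14, 0 to 47 (mouse 20) at EOS, 40 to 127 shared and 0 to 1 for the vectors. The number at EOS was 0 without EOS mouse 28, 10, 12, 19 or 13. Of 160 values of named genes under other settings, 119 kept the call, 41 lost it and 0 reversed, and of 320 with 1 tumor left out, 284 kept it and 36 lost it, these being Syt11, Synpo2 and Gfra2.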
